A study of Mus musculus with 24 samples.

Results

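The genes described here encode the protein subunits of the mitochondrial ribosome. They were chosen by name: every gene symbol in the deposited expression files that reads Mrpl or Mrps followed by a number, with pseudogene entries dropped and a mean of at least 1 FPKM (a level scaled to transcript length and to the mapped fragments of the library) over the 24 libraries. The rule found 77 genes among 23991 symbols, and all 77 reached the minimum level, with means from 9.09 FPKM (Mrps25) to 539 FPKM (Mrpl33). Of the 77, 30 encode large-subunit proteins with a counterpart in bacteria, 19 large-subunit proteins found only in mitochondria, 15 small-subunit proteins with a bacterial counterpart, 9 small-subunit proteins found only in mitochondria, and 3 are the S18 paralogs Mrps18a, Mrps18b and Mrps18c. The remaining gene, Mrps36, carries a small-subunit name, although its product is now known as a component of the 2-oxoglutarate dehydrogenase complex.

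The mitochondrial ribosome translates the few mRNAs of the mitochondrial genome, all of which encode subunits of the oxidative phosphorylation complexes. Its RNAs are transcribed inside the organelle, whereas its proteins are encoded in the nucleus and imported, so that the large and small subunits are assembled from products of both genomes. Haematopoietic stem cells are known to rely little on oxidative phosphorylation, and mitochondrial activity is known to rise as progenitors commit to a lineage.

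RNA was measured in 2 bone marrow populations of C57BL/6 mice, each sorted from 4 genotypes with 3 libraries per group: LSK cells (lineage-negative, Sca1-positive, cKit-positive, the compartment that holds the stem cells) and granulocyte-macrophage progenitors (GMP). The genotypes were wild type (WT), Flt3-ITD (ITD, an internal tandem duplication in the gene of the receptor tyrosine kinase Flt3 that is known from acute myeloid leukaemia), Ern1(fl/fl)-VavCre (labelled IRE1_KO, in which the Vav promoter drives Cre in blood cells against Ern1, the gene of the endoplasmic reticulum stress sensor IRE1), and Ern1(fl/fl)-VavCre-Flt3-ITD (labelled IRE1_KO_ITD). The labels give neither age nor a statement that libraries of a group came from separate mice, so p-values measure only the spread between these libraries. Differences are log2 fold changes on the log2(FPKM + 1) scale, which understates changes of low genes, ± the standard error (SE), and a gene is called when its limma p-value, adjusted over all genes tested, is under 0.05.

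The FPKM of a library summed to between 510361 and 673177, and read depth is unknown. Gene-level Ern1 did not fall in the libraries labelled IRE1_KO: it was 7.62 ± 1.04 FPKM (SD, n = 3) in LSK against 4.34 ± 0.54 (SD, n = 3) in WT LSK, and 20.6 ± 3.5 against 9.06 ± 1.41 in GMP (SD, n = 3 each). The labels do not say which exons are floxed, so this gene-level sum does not check the deletion, and directions below are those of the labels. In the files, only the 3 IRE1_KO LSK libraries carry 1ng in the column name, and the short gene Mir6236 made up 0.175% to 0.904% of the summed values there and 4.41% to 6.24% in the remaining 9 libraries of LSK. Sex, read from Xist and Y-linked genes, also differed: all 6 ITD libraries were female, whereas each of the other 6 groups mixed females and males. Of the 8 LSK markers (such as Ly6a, Flt3 and Hlf), 7 or 8 were lower in GMP in each genotype, and all 8 GMP markers (such as Elane, Mpo and Ctsg) were higher. Late neutrophil markers were higher in GMP too, 5 of 8 in WT, 6 in ITD, 3 in IRE1_KO and 5 in IRE1_KO_ITD, and their part in the population results was not tested.

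As a set, the 77 genes held from 0.947% to 1.18% of the summed FPKM of a library. The median of the 77 genes, as log2(FPKM + 1), averaged 5.80 ± 0.11 in WT LSK, 5.91 ± 0.09 in ITD LSK, 5.88 ± 0.09 in IRE1_KO LSK and 5.74 ± 0.02 in IRE1_KO_ITD LSK (SD, n = 3 each). In GMP it averaged 5.95 ± 0.03 in WT, 5.80 ± 0.19 in ITD, 5.92 ± 0.06 in IRE1_KO and 5.94 ± 0.09 in IRE1_KO_ITD (SD, n = 3 each). The WT LSK libraries reached from 5.69 to 5.92 and the ITD GMP libraries from 5.66 to 6.02, so that WT LSK overlapped ITD LSK and WT GMP lay within the range of ITD GMP. The 3 IRE1_KO_ITD LSK libraries, at 5.71 to 5.75, all lay below the 3 ITD LSK libraries, at 5.81 to 5.99. In bulk RNA, fewer cells of a type and less RNA per cell cannot be told apart.

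**Figure D1:**
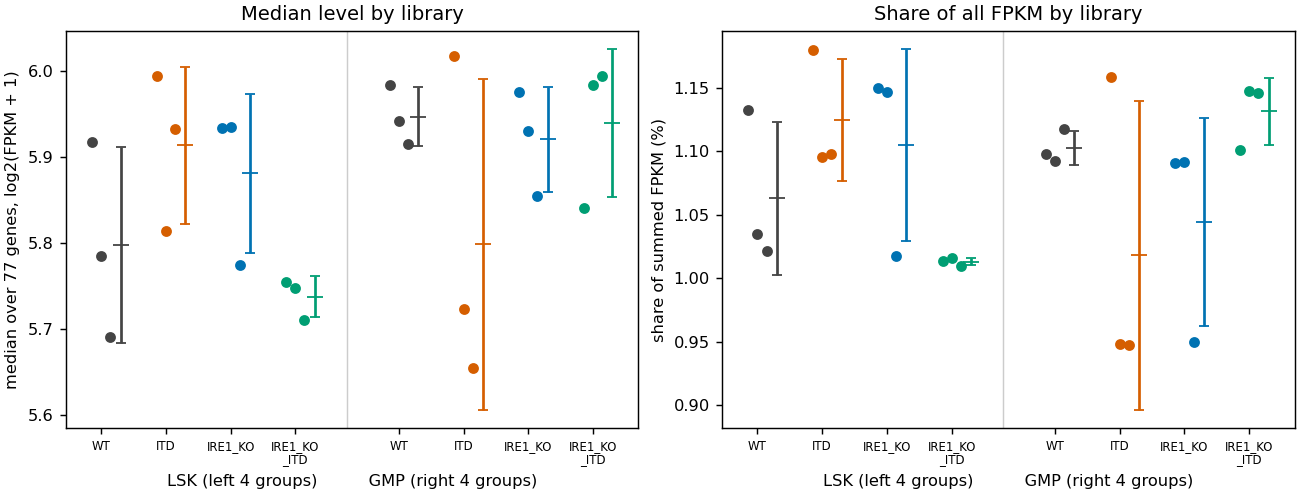
Median log2(FPKM + 1) of the 77 genes (left) and their share of summed FPKM in percent (right) in each of the 24 libraries; points are libraries, horizontal marks are group means and bars are 1 SD (n = 3), and the vertical axes do not start at 0. The 3 ITD GMP libraries were spread from 5.66 to 6.02, the widest range of the 8 groups.

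The highest members over all libraries were Mrpl33 (539 FPKM), Mrps21 (276 FPKM), Mrpl23 (254 FPKM), Mrpl42 (248 FPKM) and Mrps18c (211 FPKM), and the lowest after Mrps25 were Mrpl19 (12.5 FPKM) and Mrpl17 (12.95 FPKM). Among the S18 paralogs, proteins that share an ancestor with bacterial S18, Mrps18c was higher than Mrps18a and Mrps18b in each of the 24 libraries.

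The first comparison was between populations: did the commitment step from LSK to GMP go with a change in these genes? In WT, 24 of the 77 genes were higher in GMP and 3 were lower, where 19.0% of all 12348 genes tested were called higher and 31.3% lower. The median member was higher by 0.19 and the median gene tested was lower, at -0.11. As a share of summed FPKM, the members held 1.10 ± 0.01% in WT GMP and 1.06 ± 0.06% in WT LSK (SD, n = 3 each), and the libraries overlapped. Genes of the large subunit with a bacterial counterpart gave 10 higher and 0 lower of 30, and mitochondria-specific large-subunit genes 5 higher and 2 lower of 19. Small-subunit genes with a bacterial counterpart gave 6 higher and 1 lower of 15, while none of the 9 mitochondria-specific small-subunit genes was called. LSK and GMP differ in many genes, so these counts are given beside the background and say nothing particular to the set.

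Mrpl33, which encodes the small large-subunit protein bL33m, was the most abundant member and had one of the largest differences. Its levels were 374, 319 and 365 FPKM in the WT LSK libraries and 784, 718 and 740 FPKM in the WT GMP libraries. Every GMP library lay above every LSK library, a rise of 1.08 ± 0.16 (limma adjusted p = 1.66e-05), or 2.12-fold between the means. Mrps24, which encodes a small-subunit protein with a bacterial counterpart, rose by 1.11 ± 0.19 (limma adjusted p = 6.51e-05), from 43.2, 39.7 and 24.6 FPKM in LSK to 87.9, 66.8 and 75.5 FPKM in GMP. Mrps24 shares 226 bases of exon on the same strand with Urgcp, which averaged 5.19 FPKM in WT LSK and 4.28 FPKM in WT GMP.

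Mrpl51, a mitochondria-specific large-subunit gene, had 60.6, 46.3 and 49.6 FPKM in WT LSK and 102, 89.1 and 95.1 FPKM in WT GMP, a rise of 0.86 ± 0.13 (limma adjusted p = 2.13e-05) without overlap. Mrpl36 encodes the large-subunit protein bL36m. Its libraries stood at 125, 101 and 99.3 FPKM in LSK and at 170, 177 and 172 FPKM in GMP, again without overlap (0.67 ± 0.08, limma adjusted p = 2.54e-06). Mrpl41, Mrpl20, Mrpl44 (whose product has an RNase III fold) and Mrps21 completed the 8 largest rises among called genes, at 0.65 to 0.79. Mrps30 had an estimate of 0.69 ± 0.35 and was not called (limma adjusted p = 0.108). Of the S18 paralogs, Mrps18b (0.62 ± 0.16) and Mrps18c (0.55 ± 0.16) were called, and Mrps18a was not (-0.14 ± 0.10, limma adjusted p = 0.254).

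The members lower in WT GMP were Mrpl52, Mrps6 and Mrpl38. Mrpl52, a mitochondria-specific large-subunit gene, had 224, 195 and 204 FPKM in LSK and 121, 107 and 98.0 FPKM in GMP, so that the populations did not overlap (-0.93 ± 0.19, limma adjusted p = 0.000357). Mrps6, the counterpart of bacterial S6, went from 64.5, 53.2 and 53.2 FPKM to 36.2, 34.1 and 26.6 FPKM (-0.80 ± 0.13, limma adjusted p = 3.67e-05). Its exons overlap those of Slc5a3 on the same strand by 159 bases, and Slc5a3 averaged under 1 FPKM in both groups. Mrpl38 was called at -0.42 ± 0.16 (limma adjusted p = 0.0370) and lost the call under 8 of 16 alternatives, whereas Mrpl52 and Mrps6 kept it under all 16.

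**Figure D2:**
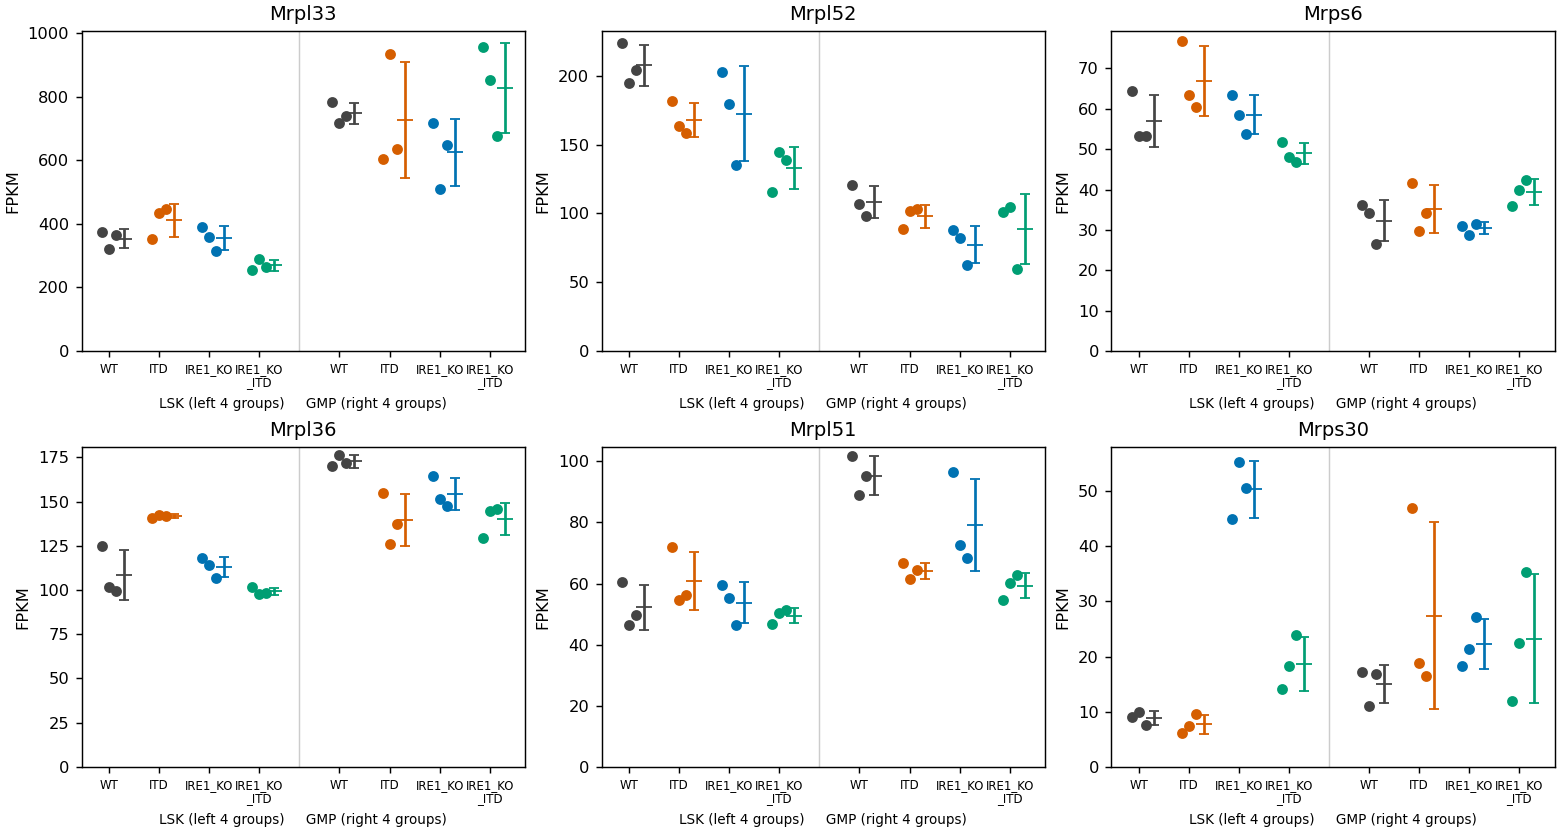
FPKM of 6 members in the 24 libraries, 1 panel per gene, with LSK groups left and GMP groups right; points are libraries, horizontal marks group means and bars 1 SD (n = 3). Mrpl33 was higher and Mrpl52 lower in GMP in all 4 genotypes, and Mrps30 was highest in the IRE1_KO LSK libraries, at 45.0 to 55.3 FPKM.

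The other 3 genotypes repeated the population comparison in libraries of their own. In IRE1_KO_ITD, 30 members were higher in GMP and 1 was lower (background 14.2% and 26.5%). In IRE1_KO, 12 were higher and 6 lower (background 12.2% and 38.5%), and in ITD, 3 were higher and 16 lower (background 13.7% and 26.8%). The median member changed by 0.20, 0.02 and -0.14, and the median gene tested by -0.13, -0.22 and -0.16, in the same order. These 4 comparisons share no library; WT and IRE1_KO_ITD had 17 of their higher members in common, which is 17 of 24 in WT and 17 of 30 in IRE1_KO_ITD. Over all genes, 46.6% of those higher in WT were also higher in IRE1_KO_ITD, and 62.3% the other way round.

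Only Mrpl33 was called higher in all 4 genotypes, at 2.12-fold in WT, 1.76-fold in ITD, 1.77-fold in IRE1_KO and 3.07-fold in IRE1_KO_ITD between means. In IRE1_KO_ITD its libraries went from 254, 289 and 265 FPKM in LSK to 956, 852 and 676 FPKM in GMP. Only Mrpl52 was called lower in all 4, at ratios of 0.522, 0.582, 0.449 and 0.665 in the same order; its call in IRE1_KO_ITD was lost in a fit of the compared groups alone and without IRE1_KO_ITD_GMP replicate 3. Mrps6 was called lower in 3 genotypes and stood at 49.0 FPKM in IRE1_KO_ITD LSK and 39.3 FPKM in IRE1_KO_ITD GMP, a ratio of 0.803. Of the 77 genes, 38 were called higher and 18 lower in at least 1 genotype, beside 29.6% and 52.1% of all 12348 genes. In at least 3 genotypes, 10 were higher and 2 lower, beside 8.57% and 22.6%, and the 1 gene in each direction in all 4 stands beside 4.98% higher and 13.8% lower.

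The counts moved with the choice of libraries and scale. Lower calls in ITD, 16 in all, numbered 31 without ITD_GMP replicate 1, 8 without ITD_GMP replicate 3, and 5 without ITD_GMP replicate 2 or ITD_LSK replicate 1; in IRE1_KO the 6 lower calls were 3 without IRE1_KO_GMP replicate 3 or IRE1_KO_LSK replicate 1. Scaling by median ratios shifted the median over all genes from -0.16 to -0.03 in ITD and from -0.22 to -0.05 in IRE1_KO, and the calls to 5 higher and 5 lower in ITD and 32 higher and 3 lower in IRE1_KO. Quantile normalization gave 19 higher and 7 lower in WT, 28 and 4 in IRE1_KO, and 3 and 8 in ITD, and it moved the median gene tested to 0.01, 0.05 and -0.07; the median member in ITD was 0.00 under median-ratio scaling. A correction for GC content and length gave 38 higher in WT, 6 higher and 6 lower in ITD, and 39 higher and 3 lower in IRE1_KO, and median-ratio scaling gave 47 higher in IRE1_KO_ITD.

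**Figure D3:**
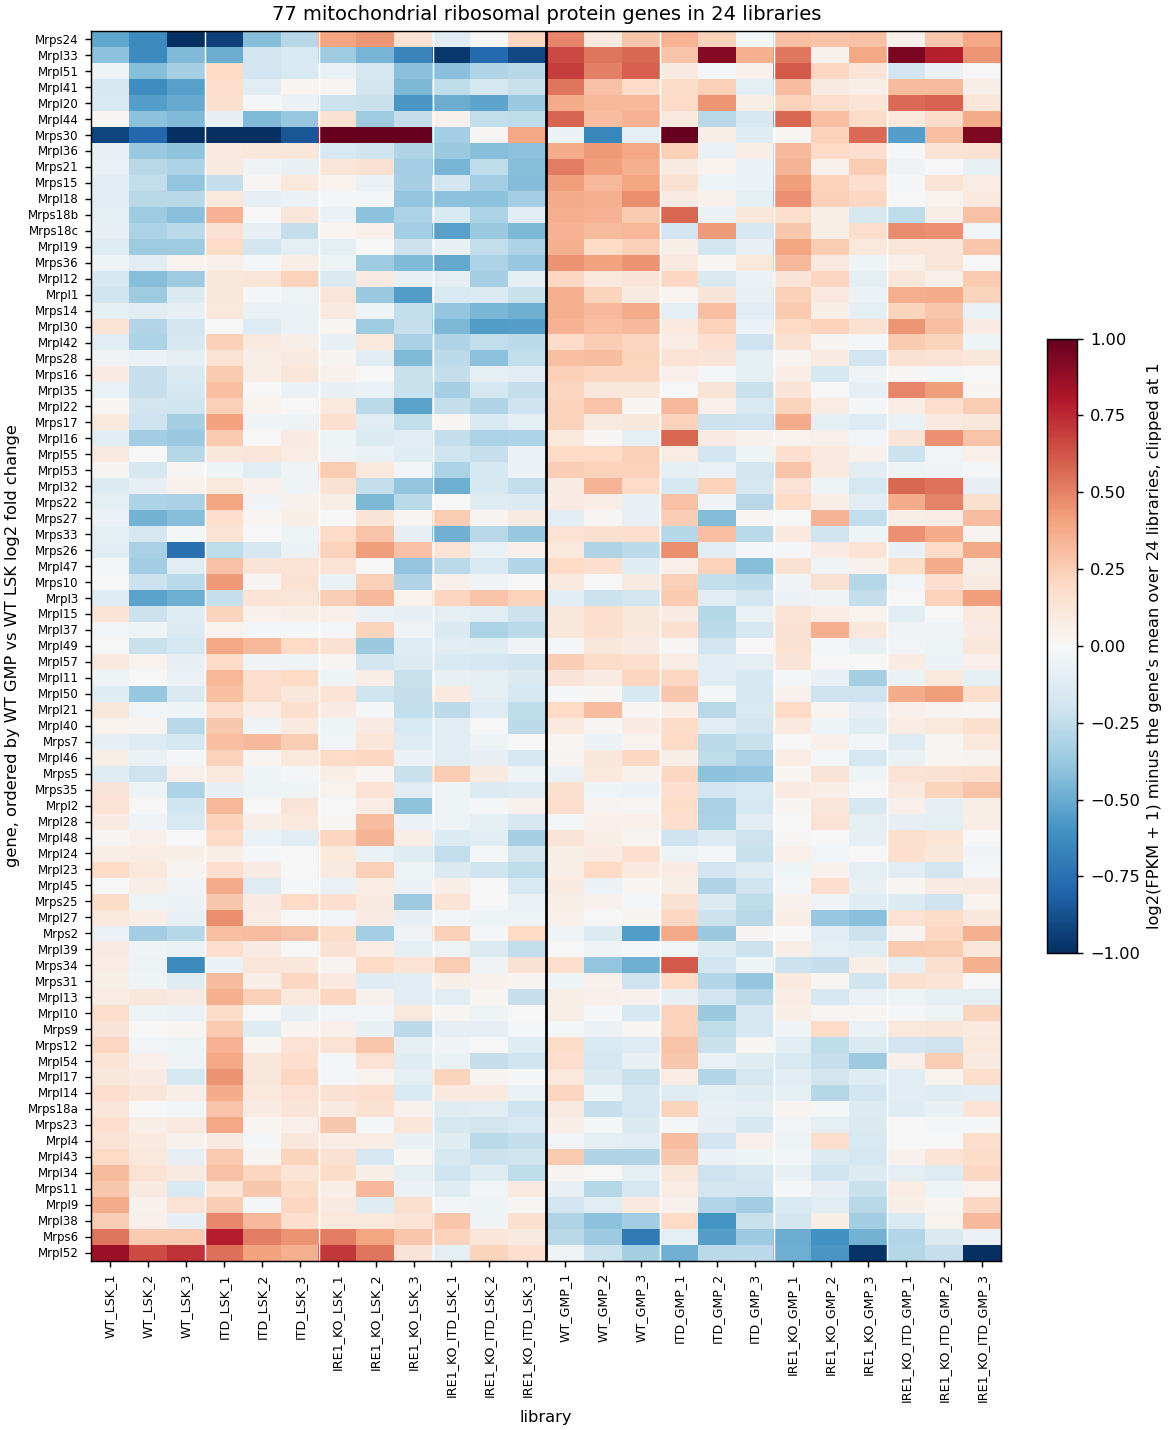
Level of the 77 genes (rows, ordered by the WT GMP against LSK difference) in the 24 libraries (columns, LSK left of the black line), as log2(FPKM + 1) minus the mean of the gene, with colours clipped at 1 unit. Within each genotype, Mrpl33 and Mrpl52 separate the populations in opposite directions, and ITD_GMP_1 differs from ITD_GMP_2 and ITD_GMP_3 over many rows.

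Promoters of members that rose together in WT GMP are shown because nuclear respiratory factor 1 (NRF1) and ETS-family factors such as GABP are known to bind in front of nuclear genes for mitochondrial proteins. The windows hold the 100 bases before the annotated start, 5′ to 3′ on the strand of the gene (RefSeq, GRCm38.p6), with motif matches in capitals. They were searched on both strands for the palindromic NRF1 core motif and for ACTTCCGG (ETS). The first 5 are members called higher in WT GMP with a match inside the window, picked after their values were seen, and Mrpl33 is given as the member with the highest level.
Mrpl12: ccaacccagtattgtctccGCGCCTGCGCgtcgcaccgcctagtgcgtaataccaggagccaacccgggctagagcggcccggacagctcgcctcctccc
Mrpl30: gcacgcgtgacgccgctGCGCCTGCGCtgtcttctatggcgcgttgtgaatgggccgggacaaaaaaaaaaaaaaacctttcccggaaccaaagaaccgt
Mrpl44: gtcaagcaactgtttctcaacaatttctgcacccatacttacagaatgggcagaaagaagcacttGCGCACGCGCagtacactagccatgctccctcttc
Mrps21: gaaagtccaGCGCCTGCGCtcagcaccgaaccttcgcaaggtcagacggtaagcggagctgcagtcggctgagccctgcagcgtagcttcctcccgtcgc
Mrpl51: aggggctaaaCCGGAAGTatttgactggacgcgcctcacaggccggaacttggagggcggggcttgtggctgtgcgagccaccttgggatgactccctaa
Mrpl33: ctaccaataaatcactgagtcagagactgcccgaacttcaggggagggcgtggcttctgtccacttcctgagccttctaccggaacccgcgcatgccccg

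These windows lie at chr11:120484537-120484636 (plus strand, Mrpl12), chr1:37890377-37890476 (plus, Mrpl30), chr1:79775918-79776017 (plus, Mrpl44), chr3:95871515-95871614 (minus, Mrps21), chr6:125192100-125192199 (plus, Mrpl51) and chr5:31613851-31613950 (plus, Mrpl33). The NRF1 match begins 81 bases before the start in Mrpl12, 83 in Mrpl30, 35 in Mrpl44 and 91 in Mrps21, and the ETS match of Mrpl51 begins 90 bases before it. In Mrpl33 an ETS match begins 3 bases before the start and runs past the window. In 300-base promoters (250 bases before to 50 after the start), which 68 of the 77 genes have in the RefSeq table, NRF1 matched in 19.1% of the members, against 11.8% of the 9018 matched genes with at least 1 FPKM in 3 libraries and 5.19% of all 27025 genes of the table. ETS matched in 17.6% of the members, 9.43% of those expressed genes and 4.31% of all genes. For YY1 these shares were 7.35%, 2.53% and 0.995%. A match describes these letters and is no binding site.

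The effect of Flt3-ITD alone differed between the populations. In LSK, 11 members were higher in ITD than in WT and 0 were lower, beside 14.9% and 7.27% of all genes tested, so the count of higher members was close to the background. At an unadjusted limma p under 0.05, 20 members were higher and 0 lower, beside 24.0% higher and 12.4% lower among all genes, so the higher share was again near the background. Mrpl12, the counterpart of bacterial L7/L12, the stalk protein at which translation factors bind, had 128, 107 and 113 FPKM in WT LSK and 156, 157 and 170 FPKM in ITD LSK (0.47 ± 0.10, limma adjusted p = 0.00822). Mrps7, the counterpart of bacterial S7, had 59.4, 57.2 and 55.4 FPKM in WT and 77.7, 79.0 and 75.3 FPKM in ITD (0.43 ± 0.08, limma adjusted p = 0.00415). In both genes the genotypes did not overlap, and of the 8 largest rises only these 2 kept their call under all 15 alternatives. Mrps2, Mrpl41, Mrps18b, Mrpl49, Mrpl20 and Mrpl50, the other 6, rose by 0.41 to 0.53.

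The count in LSK fell to 5 without WT_LSK replicate 3, to 2 without WT_LSK replicate 2 and to 6 without any 1 of the 3 ITD_LSK libraries. It was 3 with sex as a covariate, 3 under median-ratio scaling, where the median over all genes went from 0.08 to -0.03 and the median member from 0.17 to 0.04, and 3 higher and 1 lower with quantile normalization. Markers of other cell types moved with the genotype: 8 of 8 late neutrophil markers, 7 of 8 erythroid markers and 7 of 7 tested B cell markers were lower in ITD LSK. So were 3 of 8 LSK markers and 1 of 4 tested megakaryocyte markers, while 1 of 8 GMP markers was higher. The late neutrophil markers summed to 4756 to 9654 FPKM in WT LSK and 460 to 2337 FPKM in ITD LSK, the erythroid markers to 434 to 1493 and 145 to 447 FPKM, and the B cell markers to 134 to 240 and 41.3 to 72.2 FPKM; Pax5 was under 1 FPKM in all 24 libraries. Their part in the result was not tested.

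In GMP, 0 members were higher and 8 were lower in ITD than in WT, beside 7.37% and 3.32% of all genes tested, and the median member was lower by 0.13 with the median gene at 0.07. Mrpl51 had 102, 89.1 and 95.1 FPKM in WT and 66.7, 61.6 and 64.4 FPKM in ITD, a fall of 0.56 ± 0.12 (limma adjusted p = 0.0176) without overlap. Mrpl44, Mrps21, Mrpl18, Mrps15, Mrps36, Mrpl53 and Mrpl48 were the other 7, lower by 0.26 to 0.53. At an unadjusted limma p under 0.05, 22 members were lower and 0 higher, beside 9.76% lower and 19.9% higher among all genes. The calls numbered 0 without WT_GMP replicate 3 or ITD_GMP replicate 3, 1 without WT_GMP replicate 2, 2 without WT_GMP replicate 1 and 0 with sex as a covariate, against 20 under median-ratio scaling.

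ITD_GMP replicate 1 stood apart in this group. Its late neutrophil markers summed to 2335 FPKM, against 36784 and 92939 FPKM in the other ITD GMP libraries and 41812 to 61666 FPKM in WT GMP, and its members held 1.16% of FPKM against 0.948% and 0.947%. None of the 8 late neutrophil markers was called between ITD and WT GMP, while 6 of 8 erythroid, 4 of 7 tested B cell and 5 of 8 GMP markers were lower. So were 2 of 3 tested megakaryocyte markers and the 1 tested T and NK cell marker. Their part in the members' values was not tested.

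Fitted over all 24 libraries, the ITD effect in GMP minus that in LSK was called lower than 0 for 15 members and higher for 0, beside 7.10% lower and 6.45% higher among 12348 genes. The median difference was -0.33 for members and 0.00 for all genes tested. In the same test, 4 of 8 LSK markers and 1 of 8 late neutrophil markers were called higher. Called lower were 2 of 8 GMP markers and 1 of 2 tested T and NK cell markers. The part of these markers in the members' values was not tested. In each of the 15 genes the estimate was positive in LSK and negative in GMP, as it was in 54 of the 77. The difference was -0.78 ± 0.18 for Mrpl51 (limma adjusted p = 0.0120), -0.70 ± 0.12 for Mrpl36 (limma adjusted p = 0.00208), -0.62 ± 0.15 for Mrpl12 (limma adjusted p = 0.0121) and -0.59 ± 0.13 for Mrpl18 (limma adjusted p = 0.00900). Mrpl36 shows the pattern in its libraries: 125, 101 and 99.3 FPKM in WT LSK, 140, 143 and 142 FPKM in ITD LSK, 170, 177 and 172 FPKM in WT GMP, and 155, 126 and 138 FPKM in ITD GMP. ITD thus lay above WT in LSK and below WT in GMP without overlap in either population.

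Mrpl51, Mrpl36, Mrpl12 and Mrpl18 were called under all 21 alternatives to this fit. The count was 5 without WT_LSK replicate 2, 24 without ITD_GMP replicate 1, 8 with quantile normalization and 15 with sex as a covariate. The remaining 11 genes were Mrpl13, Mrpl19, Mrpl41, Mrpl42, Mrpl49, Mrpl55, Mrps7, Mrps15, Mrps16, Mrps21 and Mrps36.

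**Figure D4:**
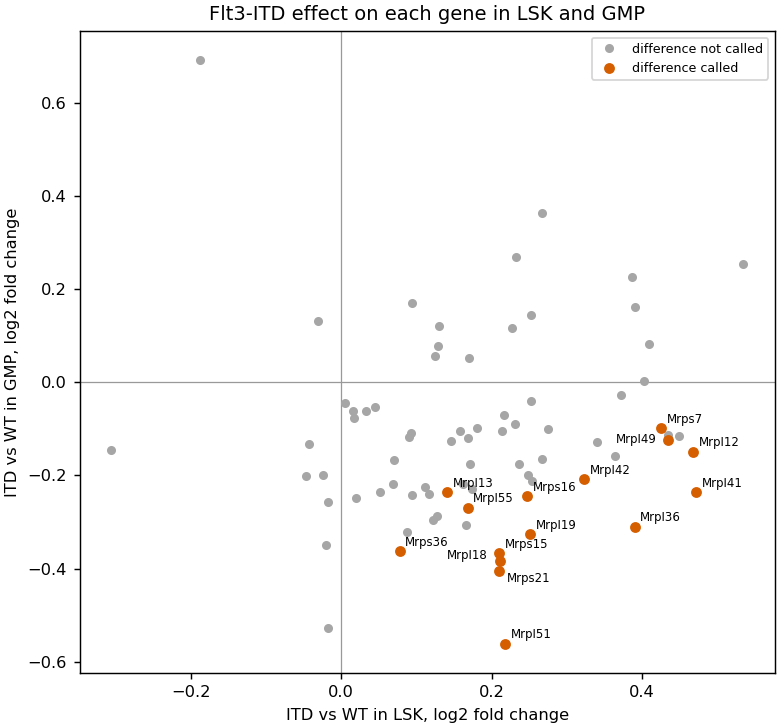
Log2 fold change of ITD against WT in LSK (horizontal) and in GMP (vertical) for each of the 77 genes, as points; the 15 genes whose difference between populations was called are coloured and named. All 15 lie at the lower right, where ITD was higher in LSK and lower in GMP.

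Flt3-ITD was also compared with floxed Ern1 in the background. Whether its effect in LSK differed with the Ern1 label is the same contrast as the test of Ern1-label effects below. That test called 6 members lower, near the background of 5.58% of all genes tested. The calls were lost with quantile normalization, median-ratio scaling or sex as a covariate. In GMP this difference was not tested. In LSK labelled IRE1_KO_ITD, 10 members were lower and 0 higher than in LSK labelled IRE1_KO, beside 19.6% and 11.7% of all genes tested, so the lower share did not exceed the background. The IRE1_KO LSK libraries all carry the 1ng tag, which cannot be told apart from the genotype. Late neutrophil (8 of 8), erythroid (7 of 8), tested B cell (7 of 7) and LSK markers (5 of 8) were lower in IRE1_KO_ITD as well. So were 2 of 8 GMP markers and 1 of 2 tested T and NK cell markers. Of 4 tested megakaryocyte markers, 1 was higher and 1 lower. The late neutrophil markers summed to 4532 to 11448 FPKM in IRE1_KO and 108 to 380 FPKM in IRE1_KO_ITD. The part of all these markers was not tested. Mrps33, a mitochondria-specific small-subunit gene, had 116, 123 and 95.5 FPKM in IRE1_KO and 72.3, 83.5 and 77.6 FPKM in IRE1_KO_ITD (-0.51 ± 0.10, limma adjusted p = 0.00377). Mrps14, the counterpart of bacterial S14, fell by 0.38 ± 0.09 (limma adjusted p = 0.00944), from 70.1, 63.8 and 55.1 FPKM to 49.8, 47.7 and 46.5 FPKM. The count was 18 without IRE1_KO_LSK replicate 3, 5 without IRE1_KO_LSK replicate 1 or 2 or IRE1_KO_ITD_LSK replicate 2, and 4 without IRE1_KO_ITD_LSK replicate 3. In GMP, Mrpl50 alone was called, higher at 33.0 than at 24.0 FPKM (0.44 ± 0.13, limma adjusted p = 0.0447, background 8.47% higher and 4.50% lower), and the call was lost under 11 of 14 alternatives, among them leaving out IRE1_KO_ITD_GMP replicate 1 or 2 or IRE1_KO_GMP replicate 2 or 3. Lower in IRE1_KO_ITD GMP were 7 of 8 erythroid, 7 of 7 tested B cell, 3 of 8 GMP and 2 of 8 late neutrophil markers. So were 2 of 3 tested megakaryocyte markers, while 2 of 5 tested LSK markers were higher. The part of these markers was not tested. Without IRE1_KO_ITD_GMP replicate 3 there were 4 higher members. Quantile normalization gave 0 higher and 1 lower and median-ratio scaling 0 and 7, with the median member at 0.05 and -0.01 in place of 0.08.

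The comparison of IRE1_KO_ITD with ITD in LSK gave the most calls between genotypes: 25 members were lower and 1 was higher, beside 6.96% lower and 13.3% higher among 11955 genes. The median member was lower by 0.25, with the median gene tested at 0.06. Large-subunit genes with a bacterial counterpart gave 13 lower of 30, mitochondria-specific large-subunit genes 4 lower and 1 higher of 19, small-subunit genes with a bacterial counterpart 4 lower of 15, and mitochondria-specific small-subunit genes 1 of 9. The estimate was above 0 for 8 of the 77 genes.

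Mrpl33 had 352, 435 and 446 FPKM in ITD LSK and 254, 289 and 265 FPKM in IRE1_KO_ITD LSK, a fall of 0.60 ± 0.12 (limma adjusted p = 0.00610). Mrpl36 went from 140, 143 and 142 FPKM to 102, 97.7 and 98.6 FPKM (-0.51 ± 0.09, limma adjusted p = 0.00381), and Mrps14 from 70.6, 62.7 and 62.7 FPKM to 49.8, 47.7 and 46.5 FPKM (-0.44 ± 0.09, limma adjusted p = 0.00894). In all 3 genes the groups were apart, and Mrpl36 and Mrps14 kept their call under all 15 alternatives. Mrpl20, Mrpl30, Mrps36, Mrps6 and Mrpl34 completed the 8 largest falls among called genes without overlap between groups, at -0.41 to -0.49. The ITD LSK libraries are the same as those compared with WT above, so that the values of Mrpl36 in the 4 LSK genotypes belong side by side: 108 FPKM in WT, 142 in ITD, 113 in IRE1_KO and 99.3 in IRE1_KO_ITD.

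This count rested on every library: it was 15, 13 and 8 without ITD_LSK replicate 3, 2 and 1, and 6, 11 and 11 without IRE1_KO_ITD_LSK replicate 3, 2 and 1. With sex as a covariate it was 11, where all 3 ITD libraries were female and 1 of the 3 IRE1_KO_ITD libraries was; 15 were called with quantile normalization and 35 under median-ratio scaling. In IRE1_KO_ITD LSK, 4 of 8 late neutrophil markers were lower, and the late neutrophil markers summed to 108 to 380 FPKM. Of the 8 LSK markers, 2 were higher and 1 was lower, and 2 of 4 tested megakaryocyte markers were higher. Lower too were 1 of 8 GMP markers and 1 of 2 tested T and NK cell markers, while no erythroid or B cell marker was called. The part of these markers was not tested.

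**Figure D5:**
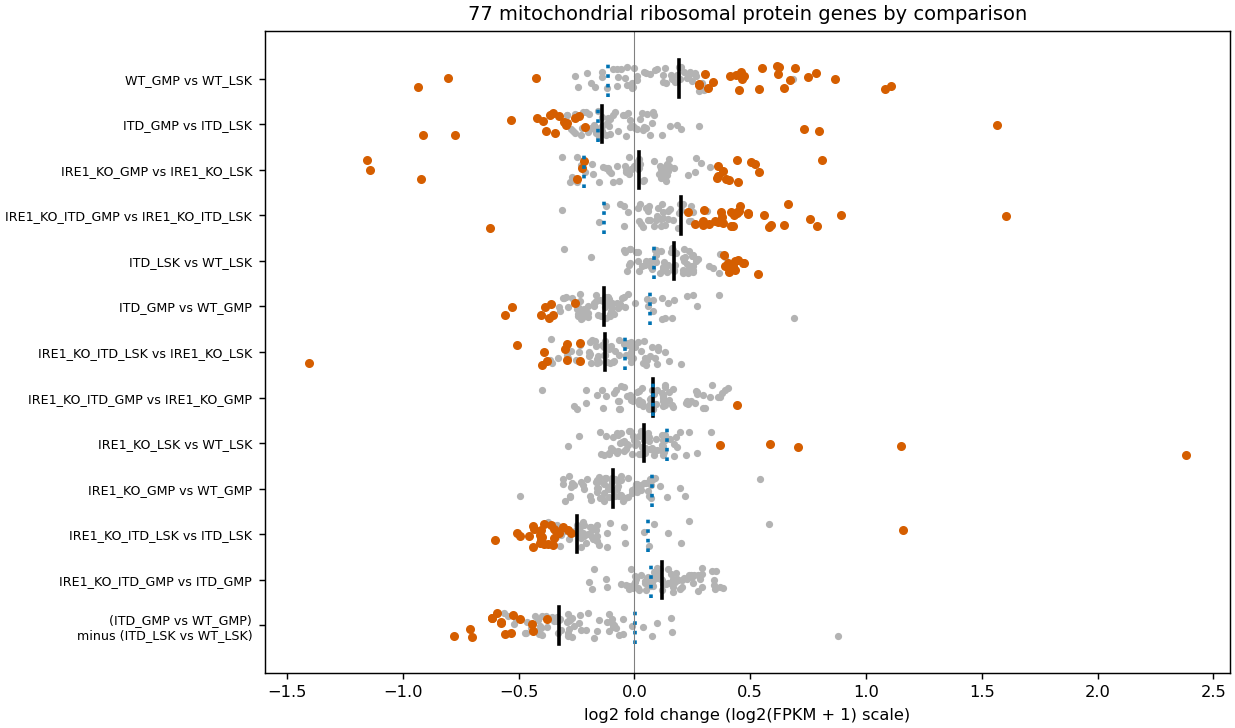
Log2 fold change of each of the 77 genes (points) in 13 comparisons, with called genes coloured; the solid black bar is the median member and the dotted blue bar the median of all genes tested. The median member lay at -0.25 and the median gene at 0.06 in IRE1_KO_ITD against ITD LSK, and at -0.33 and 0.00 in the difference of ITD effects.

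Mrps30 was the 1 member called higher in IRE1_KO_ITD than in ITD LSK. Its product, despite the name, sits in the large subunit. It had 9.06, 10.03 and 7.55 FPKM in WT LSK, 6.19, 7.49 and 9.53 in ITD LSK, 45.0, 55.3 and 50.7 in IRE1_KO LSK, and 14.04, 18.2 and 23.9 in IRE1_KO_ITD LSK. The libraries labelled for Ern1 deletion lay above those without it, by 2.38 ± 0.19 in IRE1_KO against WT (limma adjusted p = 1.63e-05) and by 1.16 ± 0.19 in IRE1_KO_ITD against ITD (limma adjusted p = 0.00345). IRE1_KO_ITD lay below IRE1_KO (-1.41 ± 0.19, limma adjusted p = 0.000331). In GMP the levels were 11.1 to 17.3 FPKM in WT, 16.5 to 46.9 in ITD, 18.3 to 27.2 in IRE1_KO and 11.99 to 35.3 in IRE1_KO_ITD, and no genotype comparison there was called; the IRE1_KO libraries lay above WT and the other pairs of groups overlapped. Mrps30 overlaps B430218F22Rik by 601 bases of exon on the opposite strand, and reads of the pair cannot be told apart if strand was not used in the counting.

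IRE1_KO against WT in LSK gave 5 higher and 0 lower members, beside 21.0% and 2.72% of all genes tested: Mrps30, Mrps24, Mrps26, Mrpl3 and Mrps27. Mrps30 and Mrps24 kept their call under every alternative. Mrps26 lost it with the GC and length correction, and Mrpl3 with that correction, quantile normalization and median-ratio scaling. Mrps27 lost it under these 3, with sex as a covariate, without the filter, and in a fit of the compared groups alone. It also lost it when most single libraries were left out. Mrps24 had 43.2, 39.7 and 24.6 FPKM in WT and 82.5, 84.9 and 69.2 FPKM in IRE1_KO (1.15 ± 0.22, limma adjusted p = 0.00246). Urgcp, which shares exon bases with Mrps24 on the same strand, was also higher here. It averaged 8.64 FPKM in IRE1_KO LSK and 5.19 FPKM in WT LSK, and its part in the Mrps24 values was not tested. Mrps26, a mitochondria-specific small-subunit gene, rose by 0.71 ± 0.14 (limma adjusted p = 0.00367), from 66.7, 57.1 and 42.3 FPKM to 84.6, 96.0 and 88.1 FPKM. The genotype and the 1ng tag cannot be told apart here, since all 3 IRE1_KO LSK libraries carry it. Lars2, a nuclear gene for a mitochondrial tRNA synthetase, was at 117 ± 44 FPKM in these libraries and at 1587 ± 145 FPKM in WT LSK (SD, n = 3 each). Scale also mattered: the calls were 3 higher and 8 lower with quantile normalization and 3 and 7 under median-ratio scaling, which took the median over all genes from 0.14 to -0.08 and -0.03 and the median member from 0.04 to -0.18 and -0.15; only without IRE1_KO_LSK replicate 1 was 1 member lower.

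In GMP, the libraries labelled for Ern1 deletion gave no called member against either control. IRE1_KO against WT had 0 calls of 77 (background 0.0267% higher and 0.507% lower), with 0 higher and 7 lower at an unadjusted limma p under 0.05, beside 8.04% and 3.97% of all genes; the 5 smallest p-values were those of Mrpl52, Mrps28, Mrps36, Mrps16 and Mrps21, all with lower estimates, and the calls stayed at 0 under every alternative run. IRE1_KO_ITD against ITD had 0 calls (background 0.916% in each direction), with 11 higher and 0 lower at an unadjusted limma p under 0.05, beside 13.2% and 4.88% of all genes, so the higher share was near the background. Without ITD_GMP replicate 1 this last comparison gave 3 higher members. Mrpl39, a mitochondria-specific large-subunit gene, had the estimate nearest to a call, 0.34 ± 0.08 (limma adjusted p = 0.0708), at 35.2 against 27.5 FPKM.

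A last test asked whether the Ern1-label effect in LSK differed between ITD and WT backgrounds. It was lower in the ITD background for 6 members, Mrpl12, Mrpl16, Mrpl36, Mrps7, Mrps30 and Mrps33, and higher for 0, beside 5.58% and 1.36% of all genes tested, a share near the background. The count was 0 with quantile normalization, median-ratio scaling or sex as a covariate. It was 16 without IRE1_KO_LSK replicate 3 and 0 to 2 without WT_LSK replicate 2 or 3, ITD_LSK replicate 2 or 3, IRE1_KO_LSK replicate 2, or IRE1_KO_ITD_LSK replicate 1 or 2.

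Other genes of mitochondrial translation were read from lists of the same kind, each against the backgrounds given above. The 6 mitochondrial ribosomal proteins with other names (Dap3, Ptcd3, Chchd1, Aurkaip1, Gadd45gip1 and Ict1) gave 4 higher and 0 lower in WT GMP against LSK, led by Ict1 (0.61 ± 0.11), a peptidyl-tRNA hydrolase within the large subunit. In GMP against LSK of the other genotypes, the 6 genes gave 0 higher in ITD, 2 in IRE1_KO and 3 in IRE1_KO_ITD, with 0 lower in each. In IRE1_KO_ITD against ITD LSK they gave 0 higher and 4 lower, with Chchd1 at 129 against 191 FPKM (-0.57 ± 0.11). The 26 assembly factors, which modify and fold ribosomal RNA, gave 3 higher and 3 lower in WT GMP against LSK and 4 higher and 0 lower in IRE1_KO_ITD against ITD LSK. In the latter, Noa1, a GTPase of small-subunit assembly, rose by 0.70 ± 0.20 and C1qbp by 0.85 ± 0.24.

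The 15 translation factors gave 5 higher and 0 lower in WT GMP against LSK, among them Gfm1, an elongation factor (0.38 ± 0.13). In GMP against LSK of the other genotypes, they gave 4 higher and 2 lower in ITD, 2 and 3 in IRE1_KO, and 0 and 0 in IRE1_KO_ITD. In IRE1_KO_ITD against ITD LSK, translation factors gave 4 higher and 0 lower, and Guf1 rose by 0.88 ± 0.15. The 19 mitochondrial aminoacyl-tRNA synthetases gave 7 higher and 0 lower in ITD against WT LSK (background 14.9% and 7.27%). Among them, Nars2 was at 7.27 against 4.18 FPKM (0.68 ± 0.11). The 20 genes of mitochondrial transcription and RNA maturation gave 8 higher and 0 lower there, among them Lrpprc (0.73 ± 0.13), which stabilizes mitochondrial mRNAs, and Pnpt1 (0.55 ± 0.10), which degrades them. In IRE1_KO against WT LSK (background 21.0% and 2.72%), the synthetases gave 6 higher and 1 lower and the transcription and RNA maturation genes 3 and 1. Assembly factors gave 6 and 0 in that comparison and translation factors 4 and 1. The IRE1_KO LSK libraries carry the 1ng tag. No alternatives are given for these lists. In ITD against WT GMP, the only call in these 5 lists was Rars2, an arginyl-tRNA synthetase, at 23.6 against 30.2 FPKM (-0.34 ± 0.08). In IRE1_KO_ITD against ITD LSK, the synthetases gave 5 higher and 0 lower and the transcription and RNA maturation genes 1 higher and 1 lower. Median differences there were 0.07 for assembly factors, 0.05 for translation factors, 0.00 for synthetases and -0.08 for transcription and RNA maturation, near the 0.06 of all genes, and -0.30 for the ribosomal proteins with other names.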

How the data were processed

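FPKM values per gene for 24 libraries are as deposited by the authors; the submitters' processing notes name STAR, Cufflinks and mm10, without versions. Protocol text names a SMART-Seq v4 and Nextera XT preparation while the series text names a stranded mRNA kit, so the strand setting is unsettled. From these values log2(FPKM + 1) was computed, genes were kept at 1 FPKM or more in at least 3 libraries of a fit, and limma 3.58.1 (R 4.3.3; moderated test with a mean trend, Benjamini-Hochberg adjustment over all genes tested) was fitted over the 12 libraries of a population, or over all 24 for population differences and for the difference of ITD effects. The fits were tested on simulated data. A true log2 change of 0.5 was called in 28% of changed genes for ITD against WT LSK. It was called in 46% for WT GMP against LSK and in 24% for the difference of ITD effects. For a change of 1 these were 94%, 94% and 62%, so changes of 0.5 often went uncalled.

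Members, gene lists and tests were chosen with earlier results of these data known. Named members are, per comparison, up to 8 highest and 8 lowest called fold changes without overlap between groups and with at least 5 FPKM in the higher group (or the 5 smallest p-values where fewer than 5 passed), plus Mrps18a, Mrps18b, Mrps18c, Mrpl12 and the 5 most abundant members; up to 4 called genes were taken per related list. The rest are named in counts. Replicate numbers were read as pairing the ITD LSK and ITD GMP libraries by their deviations from the group means. Same-numbered libraries there correlated at 0.198, 0.105 and 0.147 (from the data and not the labels). Between LSK and GMP the correlations were 0.135, 0.0502 and 0.0505 in WT and 0.236, 0.0436 and 0.085 in IRE1_KO. Each exceeded the mean with other numbers, so pairing in WT and IRE1_KO is unsettled. In IRE1_KO_ITD they were -0.0629, -0.1003 and 0.0218, and numbers were not read as pairing there or between genotypes. Alternatives were quantile normalization, median-ratio scaling, a pseudocount of 0.1, omission of the filter, a replicate block, the compared groups alone and each library left out; sex, GC content with length, a block within genotype, leaving out the 1ng libraries and the difference of Ern1-label effects were added after the data were seen. Exons of 32 of the 77 members overlap another gene (GENCODE M21, GRCm38), 27 of them on the opposite strand and 8 on the same strand, and reads of such pairs are uncertain.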

Additional observations from a re-analysis of the deposited data

Results flagged for a closer look

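The ITD effect differed between GMP and LSK by a test of the difference itself for 15 members, all lower in GMP. Of all genes tested, 7.10% had such a lower difference and 6.45% a higher one. The count of members was 5 without WT_LSK replicate 2 and 24 without ITD_GMP replicate 1. Among the named members the ITD effect was lower in GMP by the following log2 amounts: Mrpl51 -0.78, Mrpl41 -0.71, Mrpl36 -0.70, Mrpl12 -0.62, Mrps21 -0.61, Mrpl18 -0.59, Mrpl19 -0.58, Mrps15 -0.58 and Mrpl42 -0.53. The effect of the Ern1 label in LSK differed between the ITD and WT backgrounds, also by a test of the difference, for 6 members: Mrps30 -1.22, Mrps33 -0.62, Mrpl12 -0.60, Mrpl16 -0.58, Mrpl36 -0.57 and Mrps7 -0.47. The share of all genes with such a lower difference was 5.58%, so the 6 of 77 are near the background. The count was 0 with quantile normalization, with median-ratio scaling and with sex as a covariate, and the 3 IRE1_KO LSK libraries in it carry the 1ng tag.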

How the results depend on the processing

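Counts of called members are given as higher or lower in the first group named. Leaving out 1 library at a time gave, for GMP against LSK, 22 to 27 higher and 2 to 4 lower in WT, 3 higher and 5 to 31 lower in ITD, 8 to 17 and 3 to 7 in IRE1_KO, and 21 to 28 and 0 to 1 in IRE1_KO_ITD. ITD against WT gave 2 to 12 higher and 0 lower in LSK and 0 higher and 0 to 8 lower in GMP. IRE1_KO_ITD against IRE1_KO gave 4 to 18 lower in LSK and 0 to 4 higher and 0 to 1 lower in GMP. IRE1_KO against WT gave 4 to 6 higher and 0 to 1 lower in LSK and 0 in GMP. IRE1_KO_ITD against ITD gave 1 higher and 6 to 15 lower in LSK and 0 to 3 higher in GMP. The difference of ITD effects gave 5 to 24 lower, and that of Ern1-label effects 0 to 16.

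With quantile normalization, lower calls were 7 (WT), 8 (ITD) and 3 (IRE1_KO_ITD) and higher calls 28 (IRE1_KO) for GMP against LSK; ITD against WT LSK gave 3 higher and 1 lower, IRE1_KO_ITD against IRE1_KO 5 lower in LSK and 0 higher and 1 lower in GMP, IRE1_KO against WT LSK 3 higher and 8 lower, IRE1_KO_ITD against ITD LSK 15 lower, and the differences of ITD and Ern1-label effects 8 and 0 lower. Under median-ratio scaling the counts were 5 higher and 5 lower (ITD GMP against LSK), 32 and 3 (IRE1_KO) and 47 higher (IRE1_KO_ITD); 3 higher (ITD against WT LSK), 20 lower (ITD against WT GMP), 0 higher and 7 lower (IRE1_KO_ITD against IRE1_KO GMP), 3 and 7 (IRE1_KO against WT LSK) and 0 lower (difference of Ern1-label effects). With the GC and length correction they were 38 higher (WT GMP against LSK), 6 and 6 (ITD), 39 and 3 (IRE1_KO) and 3 lower (IRE1_KO_ITD); 1 lower (ITD against WT LSK), 0 higher and 5 lower (IRE1_KO_ITD against IRE1_KO GMP), 3 and 2 (IRE1_KO against WT LSK), 2 higher (IRE1_KO_ITD against ITD LSK) and 1 lower (difference of Ern1-label effects).

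In fits of the compared groups alone, lower calls were 3 in GMP against LSK of ITD and of IRE1_KO, 1 in ITD against WT GMP and 5 in IRE1_KO_ITD against IRE1_KO LSK, and higher calls 5 in ITD against WT LSK and 0 in IRE1_KO_ITD against IRE1_KO GMP. With sex as a covariate, ITD against WT gave 3 higher in LSK and 0 lower in GMP, IRE1_KO_ITD against IRE1_KO 6 lower in LSK and 0 higher in GMP, IRE1_KO_ITD against ITD LSK 11 lower, and the difference of Ern1-label effects 0. Without the low-level filter, IRE1_KO_ITD against IRE1_KO GMP gave 0 higher. In every case the cause was not tested.

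The replicate block gave 2 lower calls in IRE1_KO_ITD GMP against LSK (also 2 with the block within genotype), 5 in ITD against WT GMP and 23 in the difference of ITD effects. For the paired ITD populations the block within genotype gave 3 higher and 21 lower, and no count moved by more than 1.5 times there. Same-numbered libraries correlated at -0.338 to 0.103 between genotypes of a population. The median member level averaged 5.76 in IRE1_KO LSK with quantile normalization and 5.75 under median-ratio scaling, which gave 5.61 in IRE1_KO_ITD LSK and 6.09 in WT GMP; a pseudocount of 0.1 gave 5.71 in IRE1_KO_ITD LSK. Signs reversed for Mrpl23 with quantile normalization in WT GMP against LSK (-0.22, limma adjusted p = 0.0224), and for Mrps18a (0.19, limma adjusted p = 0.0323) and Mrpl23 (0.24, limma adjusted p = 0.0161) with the GC and length correction in IRE1_KO GMP against LSK. Among named members, 2779 values kept sign and side of the threshold, 383 lost the call and 59 gained it. FPKM carries no depth, so counting error could not be given.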
